A study of Arabidopsis thaliana with 10 samples.

Results

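The WRKY transcription factors of Arabidopsis thaliana were followed as 60 loci of a count table of 33602 genes, in 10 RNA-seq libraries of whole seedlings with 4 open true leaves. The 60 were taken by locus identifier, from WRKY1 to WRKY75, without the least expressed members and those fused to a TIR-NBS immune receptor. A further 12 loci that carry a WRKY name in the RefSeq annotation are not in the set. The libraries form 5 groups of 2. All plants were in the Col-0 background, on GM-Suc agar in long days, and 0.1% ethanol, the solvent of dexamethasone (Dex), was in the medium with and without Dex per the labels' treatment protocol. The groups were Col-0 wild type at 12 days; Col-0 at 12 days on 10 µM Dex; the DIF-OX2 line at 12 days without Dex; DIF-OX2 at 12 days on 10 µM Dex, called induced here; and dal-2, harvested at 20 and 21 days. Per its title, the study is about DAL (DIFFERENTIATION AND GREENING-LIKE), a protein that an SCF ubiquitin ligase containing DIF marks for degradation, and about signals from plastid to nucleus. DIF-OX2 is 1 transgenic line; what drives its transgene is not stated in the labels, and the transgene's own transcript was not analysed here. Because dal-2 was 8 to 9 days older than the other seedlings at the same leaf stage, its genotype and its age cannot be told apart.

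WRKY proteins bind DNA through a domain named after the amino acids W, R, K and Y at its start, which is followed by a zinc finger, and most of them recognise the W-box, TTGACC or TTGACT. They are sorted into groups by how many WRKY domains they carry and by the form of the zinc finger: group I has a pair of domains, group II a single domain with a C2H2 finger, and group III a single domain with a C2HC finger. Members act as activators or repressors in pathogen defence, salicylic acid and jasmonate signalling and leaf senescence, and some, among them WRKY40, are described as regulators of nuclear genes that respond to mitochondrial or chloroplast stress. Many WRKY promoters themselves carry W-boxes and are targets of WRKY proteins.

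The coding sequences in RefSeq (TAIR10.1), matched for 60 of 60 members, followed this scheme. All 10 group I members encoded 2 copies of the conserved heptad and the other 50 encoded 1. The C2HC pattern was found in 8 members, all of group III, and the C2H2 pattern in 51; WRKY36 matched neither pattern. In 57 members the heptad reads WRKYGQK, and in WRKY50, WRKY51 and WRKY59, all of group IIc, it reads WRKYGKK. Their heptad codons are shown because all 3 were called higher in induced DIF-OX2, as were 11.6% of all genes tested. WRKY75 of the same group and WRKY60 of group IIa, which have the common form, are shown beside them. The call of WRKY50 was not made by DESeq2 or limma-voom. WRKY59 had enough counts for testing only through the induced libraries. Each line gives the coding strand, 5′ to 3′, with the codon of the sixth residue in capitals.
WRKY50 (chr5:9147579-9147599, minus strand): tggagaaagtatgggAAGaag
WRKY51 (chr5:25908864-25908884, plus strand): tggaggaagtatggcAAGaaa
WRKY59 (chr2:9335762-9335782, minus strand): tggaggaaatacggaAAGaag
WRKY75 (chr5:4150786-4150806, minus strand): tggaggaaatatggcCAAaag
WRKY60 (chr2:10630643-10630663, plus strand): tggaggaaatacgggCAAaag
The sixth codon is AAG, for lysine, in WRKY50, WRKY51 and WRKY59, and CAA, for glutamine, in WRKY75 and WRKY60.

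The 300 bases before each annotated gene start were searched for TTGACC and TTGACT on both strands, where a match on the other strand reads GGTCAA or AGTCAA. At least 1 match was present in 23 of the 60 members (38.3%) and in 32.3% of the 26711 nuclear protein-coding genes of the table. Windows with 2 or more matches were found for 9 members (15%) against 7.93% of all genes, and windows with 3 or more for WRKY30 and WRKY33 (3.33% against 1.58%). With the window moved 50 bases downstream the shares were 35% and 16.7% of members for at least 1 and at least 2 matches, and 32.4% and 7.73% of all genes. For 3 or more matches the moved window gave 1.67% of members and 1.48% of all genes. A match says only that the letters are present. Windows are shown for 5 members: WRKY33, WRKY53 and WRKY29, which have 2 or more matches and rose in both main comparisons; WRKY46, which had the largest called rise in induced DIF-OX2 among members averaging 50 or more counts per library, and no match; and WRKY70, the 1 member that fell, also with no match. Each is on the gene's own strand, 5′ to 3′, with matches in capitals, from TAIR10.1.
WRKY33 (chr2:16107935-16108234, plus strand): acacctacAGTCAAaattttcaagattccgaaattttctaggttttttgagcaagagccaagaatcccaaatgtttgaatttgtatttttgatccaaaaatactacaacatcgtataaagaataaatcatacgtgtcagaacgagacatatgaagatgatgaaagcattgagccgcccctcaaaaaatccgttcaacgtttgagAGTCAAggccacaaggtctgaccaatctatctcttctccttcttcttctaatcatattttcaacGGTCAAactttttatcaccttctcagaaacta
WRKY53 (chr4:12393983-12394282, minus strand): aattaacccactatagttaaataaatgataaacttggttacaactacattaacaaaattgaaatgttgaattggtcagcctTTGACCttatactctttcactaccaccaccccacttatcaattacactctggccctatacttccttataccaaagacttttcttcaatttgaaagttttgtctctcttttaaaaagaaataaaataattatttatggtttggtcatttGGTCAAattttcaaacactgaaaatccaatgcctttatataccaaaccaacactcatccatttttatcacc
WRKY29 (chr4:12291332-12291631, plus strand): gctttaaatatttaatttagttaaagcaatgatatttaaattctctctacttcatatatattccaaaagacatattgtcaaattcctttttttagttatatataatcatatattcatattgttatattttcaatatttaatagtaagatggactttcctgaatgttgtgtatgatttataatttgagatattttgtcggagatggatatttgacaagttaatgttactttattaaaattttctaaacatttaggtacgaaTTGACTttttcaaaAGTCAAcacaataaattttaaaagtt
WRKY46 (chr2:19044956-19045255, minus strand): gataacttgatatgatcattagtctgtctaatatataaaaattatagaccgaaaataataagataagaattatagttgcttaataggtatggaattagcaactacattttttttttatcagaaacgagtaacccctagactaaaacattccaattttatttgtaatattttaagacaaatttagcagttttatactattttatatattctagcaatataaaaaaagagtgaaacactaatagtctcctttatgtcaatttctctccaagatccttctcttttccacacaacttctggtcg
WRKY70 (chr3:20910624-20910923, minus strand): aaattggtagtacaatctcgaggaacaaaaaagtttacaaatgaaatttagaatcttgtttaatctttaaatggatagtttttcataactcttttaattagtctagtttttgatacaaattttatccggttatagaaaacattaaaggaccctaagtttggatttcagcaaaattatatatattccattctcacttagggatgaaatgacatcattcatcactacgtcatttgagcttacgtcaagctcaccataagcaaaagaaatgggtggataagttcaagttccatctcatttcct
Over all genes tested, 11.6% were called higher in induced DIF-OX2 and 15.9% in dal-2. Of the members with 2 or more matches, 8 were tested and 5 rose in induced DIF-OX2 and 5 in dal-2. With 1 match, 13 were tested and 9 and 6 rose, and with none, 37 were tested and 12 and 11 rose, in that order.

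Library totals ran from 8805568 to 16556322 counts, and 20681 of the 33602 genes had enough counts for testing, 58 members among them. Levels are CPM, the counts of a gene relative to the library's total after TMM scaling. In these bulk libraries, fewer cells of a type and less RNA per cell cannot be told apart. The libraries of dal-2 differed most between themselves: the SD over genes of the log2 difference between the 2 replicates was 0.75 in dal-2 and 0.35 to 0.44 in the other groups. The DAL transcript stood at 29.5 and 35.7 CPM in dal-2, at 72.6 and 59.3 in induced DIF-OX2 and between 92.6 and 115 in the other 6 libraries. All 3 leaf markers were present in every library, but their summed level was 24448 to 29720 CPM in the 6 libraries of Col-0, Col-0 on Dex and uninduced DIF-OX2, 9309 to 13421 in induced DIF-OX2 and 873 to 2544 in dal-2. Of the 3 root markers, PYK10 was at 1938 to 2545 CPM in the 12-day groups and at 4613 and 5138 in dal-2, CASP1 was at 24.3 to 40.8 against 19.0 and 13.9, and COBL9 was at 5.77 to 16.2 against 7.71 and 3.497; PYK10 made up nearly all of their sum, which was 1983 to 2596 against 4640 to 5155. The 3 flower markers summed to at most 0.85 CPM in the 12-day groups and to 2.46 to 6.38 in dal-2, and the 2 seed markers to at most 0.19 in the 12-day groups and to 1.05 to 1.64 in dal-2, where CRC had counts in both libraries and in none of the other 8. The part of these marker differences in the WRKY results was not tested.

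Summed over the 60 members, WRKY transcripts stood at 628 and 694 CPM in Col-0, 602 and 622 in Col-0 on Dex, 614 and 679 in uninduced DIF-OX2, 1202 and 1333 in induced DIF-OX2 and 956 and 1099 in dal-2. The 4 libraries of induced DIF-OX2 and dal-2 thus lay above the other 6. The induced mean, 1268 ± 92.0 CPM (SD, n = 2), was 2.07 times that of Col-0 on Dex (612 ± 14.0), and the dal-2 mean, 1028 ± 101.2, was 1.55 times that of Col-0 (661 ± 46.7). As a share of all counts before scaling, the family took 0.0552% to 0.0615% in the 6 lower libraries, 0.127% and 0.149% in induced DIF-OX2 and 0.124% and 0.133% in dal-2. The 10 most abundant members held 53.2% to 55.3% of the family's level in the 6 lower libraries and 45.6% to 47.1% in the other 4. The number of members above 1 CPM was 46 to 49 in the lower 6, 57 and 56 in induced DIF-OX2, and 52 and 49 in dal-2.

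**Figure D1:**
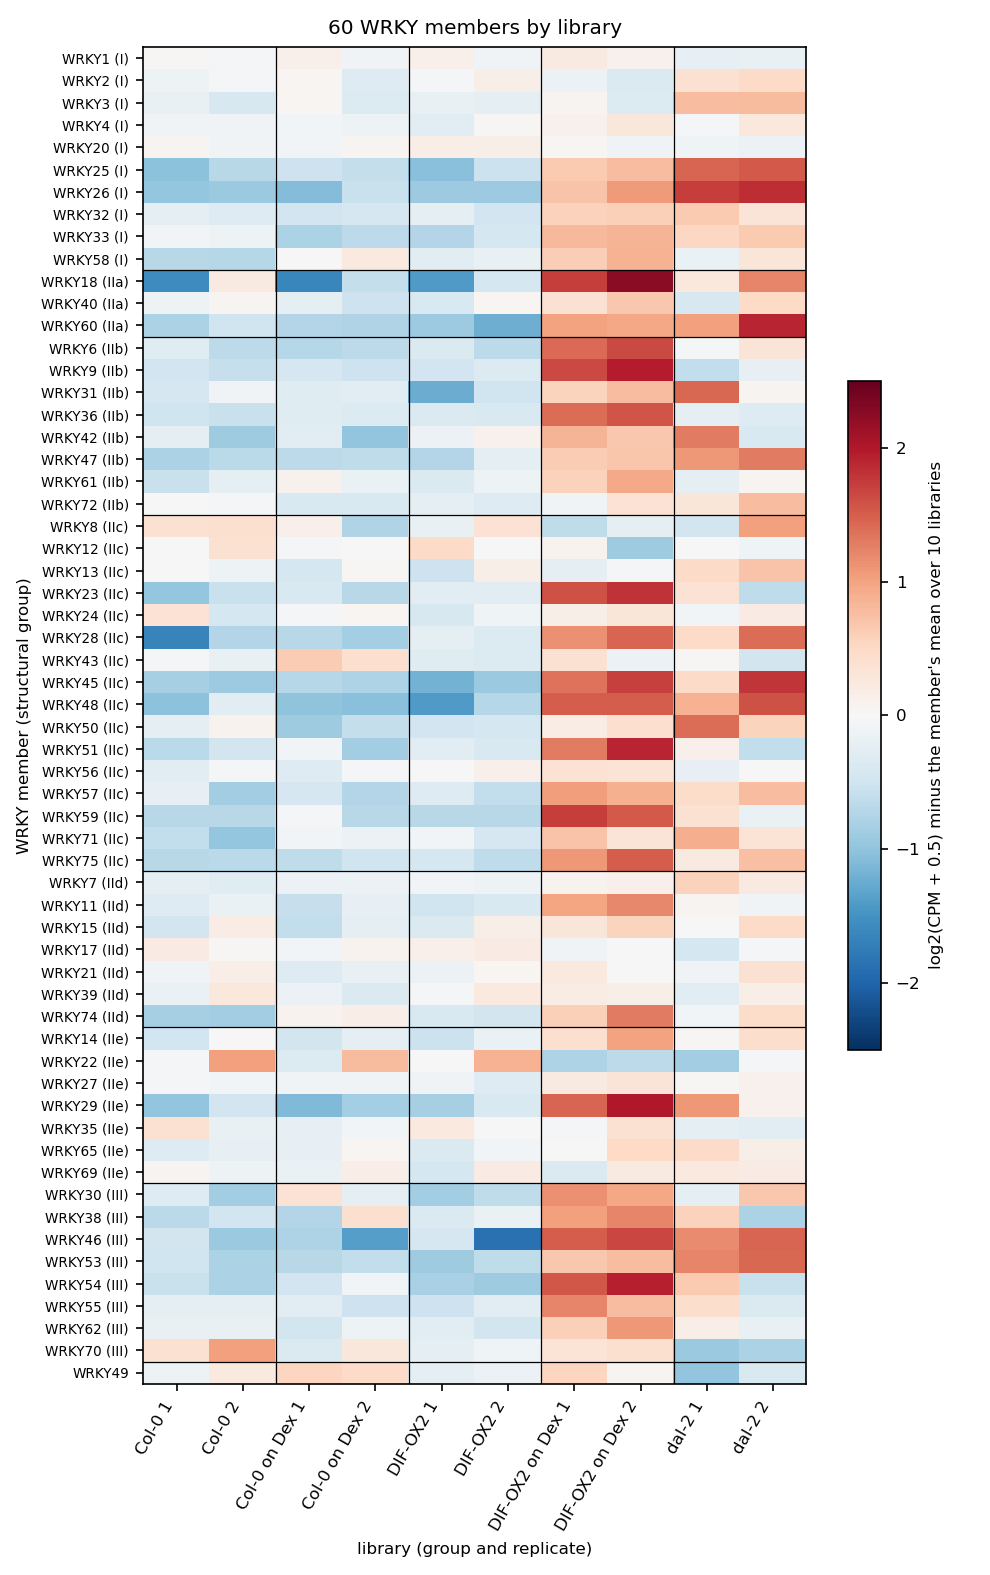
Each row is 1 of the 60 WRKY members, with its structural group, and each column 1 library; colour is log2(CPM + 0.5) minus the member's mean over the 10 libraries. Red cells gather in the 2 induced DIF-OX2 columns, where 26 members rose, and in part in the 2 dal-2 columns, where 22 rose.

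Induced DIF-OX2 was compared with Col-0 on the same Dex, so that Dex is on both sides. Of the 58 members tested, 26 rose and 0 fell, calling a change at 0.05 for the Benjamini-Hochberg adjusted p of edgeR's quasi-likelihood test, taken over all 20681 genes. Over all genes, 11.6% were called higher and 10.4% lower. Among the 26, WRKY59 had enough counts for testing only through the induced libraries. The members' median log2 fold change was 1.07, against 0.01 over all genes tested. No member was lower at an unadjusted p under 0.05, nor by DESeq2 or limma-voom, which called 26 and 25 higher. WRKY22 was called lower with the replicate number as a block (-1.125, adjusted p = 0.0253). It was also called lower in the fit on the 4 libraries of this comparison alone (-1.20, 0.0478), where all 26 still rose. Without Col-0 on Dex replicate 2 the count of members higher was 16. In dal-2 against Col-0, without Dex, 22 members rose and 1 fell, where 15.9% of all genes were called higher and 18% lower; the members' median was 0.66 and that of all genes 0.03. DESeq2 called 20 higher and limma-voom 18, and each called 1 lower; without dal-2 replicate 2, 3 were lower. Fitted on the 4 libraries of the dal-2 comparison alone, 8 of the 22 still rose (WRKY3, WRKY25, WRKY26, WRKY46, WRKY47, WRKY48, WRKY53 and WRKY60) and WRKY70 still fell. Whether the replicates were grown as separate cultures is not stated in the labels; if they were not, the p-values reflect technical spread alone.

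These main comparisons share no library. Of the members, 16 rose in both, which is 61.5% of the 26 and 72.7% of the 22; over all genes tested, 1068 rose in both, 44.4% and 32.6% of the respective lists. The 16 were WRKY6, WRKY25, WRKY26, WRKY28, WRKY29, WRKY32, WRKY33, WRKY45, WRKY46, WRKY47, WRKY48, WRKY50, WRKY53, WRKY57, WRKY60 and WRKY75. Of these, only WRKY25, WRKY26, WRKY46, WRKY47, WRKY48, WRKY53 and WRKY60 kept the dal-2 call when fitted on the libraries of that comparison alone. The calls made in induced DIF-OX2 and not in dal-2 were WRKY9, WRKY11, WRKY14, WRKY18, WRKY23, WRKY36, WRKY51, WRKY54, WRKY59 and WRKY61, and those made in dal-2 and not in induced DIF-OX2 were WRKY2, WRKY3, WRKY7, WRKY58, WRKY71 and WRKY74. Across the 58 members, Spearman's rho between the log2 fold changes of both comparisons was 0.69, and across all genes it was 0.52; genes are not independent replicates, and all libraries were scaled together. The difference of the main effects was itself tested. For 6 members the induced effect was higher than the dal-2 effect and for 2 it was lower, where 4.18% and 1.89% of all genes were called. Those 6 were WRKY9, WRKY70, WRKY6, WRKY36, WRKY11 and WRKY33, and the 2 were WRKY25 and WRKY3. With 1 library left out the count of higher effects ran from 2, without Col-0 on Dex replicate 1 or induced DIF-OX2 replicate 2, to 10, without dal-2 replicate 1; it was 3 without either Col-0 library. The count of lower effects was 0 without any of the 4 libraries of Col-0 and Col-0 on Dex or without induced DIF-OX2 replicate 2, 1 without either uninduced library or induced DIF-OX2 replicate 1, and 4 without dal-2 replicate 1. Of the other 50 members no difference between the effects was called, including 7 of the 10 called in induced DIF-OX2 and not in dal-2 and 5 of the 6 called in dal-2 and not in induced DIF-OX2.

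**Figure D2:**
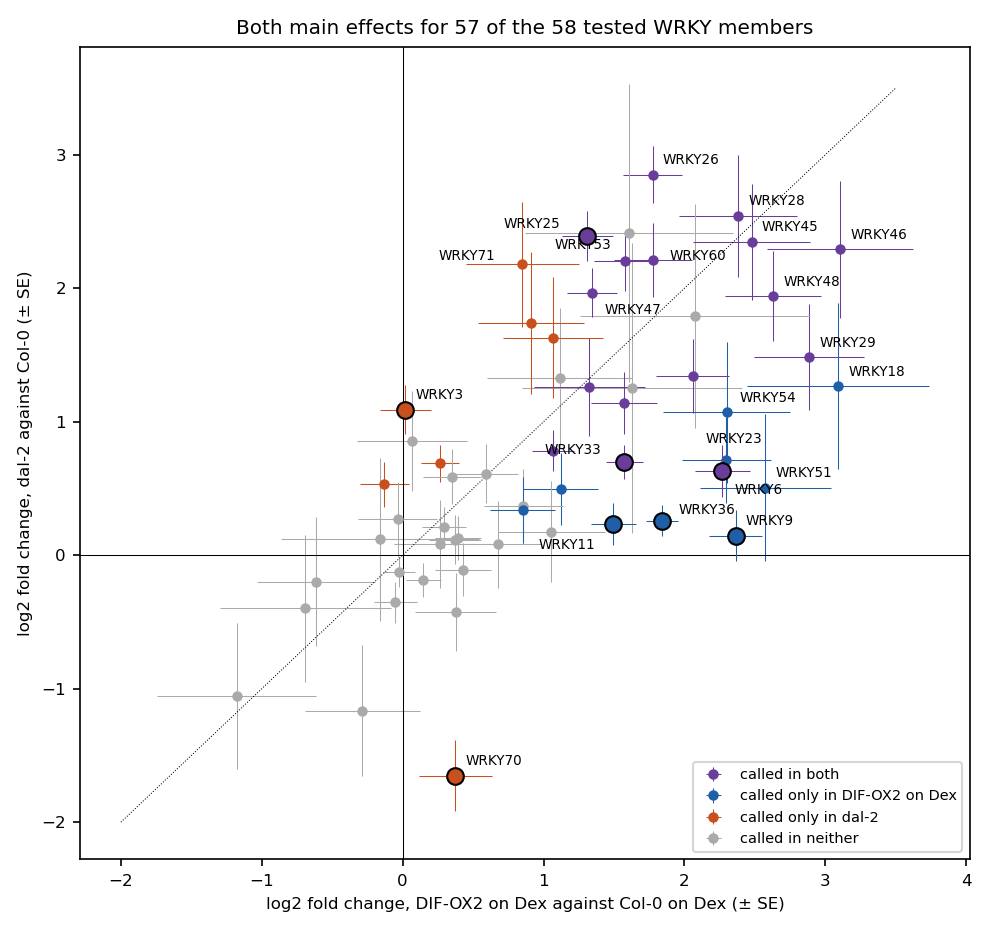
Each point is 1 of 57 tested WRKY members, with its log2 fold change in induced DIF-OX2 (x axis) and in dal-2 (y axis) and bars of 1 SE; large ringed points are the 8 members whose effects differed, and the dotted line marks equal effects. WRKY59, which had no count in Col-0, is left out; WRKY70 is the 1 called point below 0, and WRKY9, WRKY11 and WRKY36 lie near 0 on the y axis.

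By structural group, the members that rose in induced DIF-OX2 and in dal-2, in that order, were 4 and 7 of 10 in group I, 2 and 1 of 3 in group IIa, 5 and 2 of 8 in group IIb, and 9 and 7 of 16 in group IIc. In group IId 1 and 2 of 7 rose, in group IIe 2 and 1 of 7, and in group III 3 and 2 of the 6 tested. Over all genes tested, 11.6% and 15.9% were called higher. The 14.3% of group IId in induced DIF-OX2 and the 14.3% of group IIe in dal-2 are close to these shares. The group medians in induced DIF-OX2 were highest in group IIa (1.78 on the log2 scale), group III (1.62) and group IIb (1.59) and lowest in groups IIe (0.38) and IId (0.43). In dal-2 the medians were 1.73 in group III, 1.27 in group IIa, 1.00 in group IIc, 0.74 in group I, 0.62 in group IIb, 0.27 in group IIe and 0.24 in group IId. These counts and medians are descriptions and the groups were not compared by a test.

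**Figure D3:**
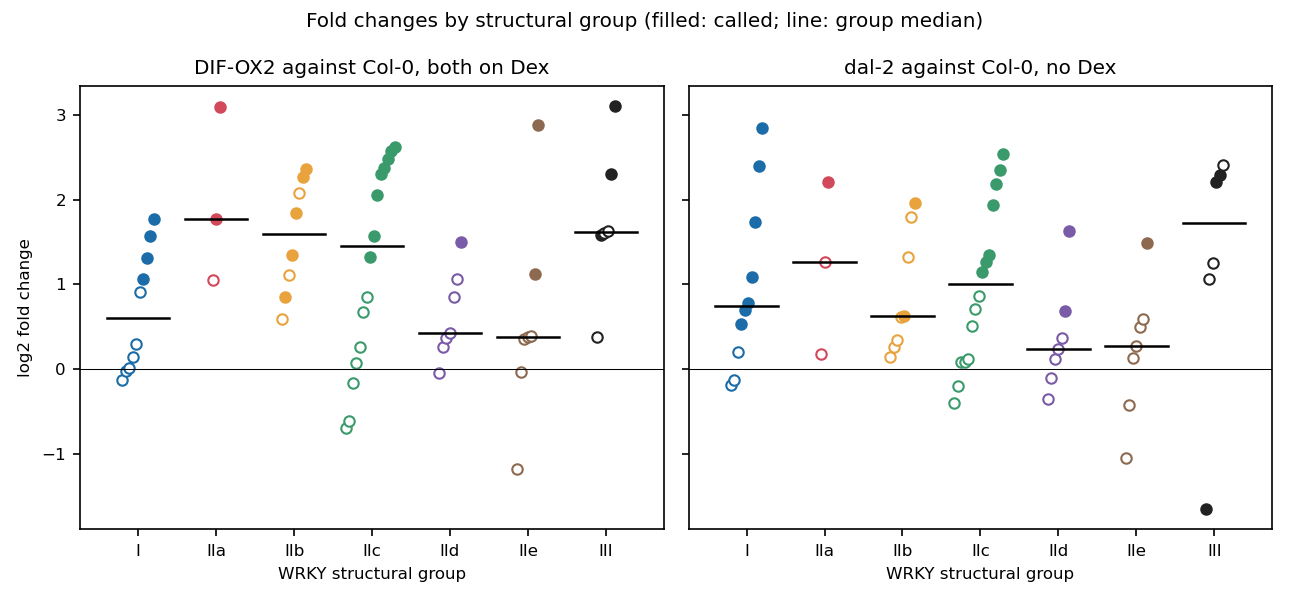
Points are the log2 fold changes of the tested members in each WRKY structural group, filled where called, with the group median as a line; the left panel is induced DIF-OX2 and the right panel dal-2. WRKY59 counts in the median of group IIc but has no point; the filled point below 0 is WRKY70.

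Group IIa holds WRKY18 (AT4G31800), WRKY40 (AT1G80840) and WRKY60 (AT2G25000), which bind each other and are described as repressors of basal defence with overlapping roles. WRKY18 stood at 5.24 and 19.4 CPM in Col-0, 5.03 and 10.8 in Col-0 on Dex, 5.94 and 12.2 in uninduced DIF-OX2, 56.0 and 81.3 in induced DIF-OX2 and 20.1 and 39.2 in dal-2. Its induced libraries lay above all 8 others, and replicate 2 was above replicate 1 in every group. WRKY18 rose in induced DIF-OX2 by 3.09 ± 0.65 on the log2 scale (SE, adjusted p = 0.0123). The call was lost without Col-0 on Dex replicate 1 (adjusted p = 0.0938) or replicate 2 (3.78, 0.0519) or without induced DIF-OX2 replicate 2 (0.0840). In dal-2 its value was 1.27 ± 0.62 (adjusted p = 0.146), but it was called without Col-0 replicate 2 (2.56, 0.0454) and with the replicate number as a block (1.37, 0.00783). WRKY60 stood at 10.14 and 12.6 CPM in Col-0, 10.6 and 10.49 in Col-0 on Dex, 9.42 and 7.44 in uninduced DIF-OX2, 36.7 and 35.6 in induced DIF-OX2 and 37.3 and 68.3 in dal-2. The 4 libraries of induced DIF-OX2 and dal-2 were all above the other 6, and WRKY60 rose in both comparisons, by 1.78 ± 0.27 (adjusted p = 0.00369) and 2.21 ± 0.28 (0.000995). WRKY40, described as a repressor of stress genes for mitochondria and chloroplasts, was at 2.67 and 3.13 CPM in Col-0, 2.47 and 1.91 in Col-0 on Dex, 2.14 and 3.06 in uninduced DIF-OX2, 3.98 and 4.98 in induced DIF-OX2 and 2.12 and 4.39 in dal-2. Its induced libraries were above both of Col-0 on Dex, while its dal-2 libraries overlapped those of Col-0, and neither effect was called, at 1.06 ± 0.38 (adjusted p = 0.0819) and 0.18 ± 0.38 (0.747). The WRKY40 value is the less certain because 95.9% of its 50-base stretches were unique in the genome, against 100% for the other 59 members.

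In group I, WRKY33 (AT2G38470), which drives camalexin synthesis and resistance to Botrytis downstream of the kinases MPK3 and MPK6, stood at 27.3 and 26.3 CPM in Col-0, 16.5 and 18.2 in Col-0 on Dex, 17.1 and 21.0 in uninduced DIF-OX2, 51.2 and 52.2 in induced DIF-OX2 and 41.4 and 45.6 in dal-2. It rose by 1.57 ± 0.13 in induced DIF-OX2 (adjusted p = 0.000308) and by 0.70 ± 0.13 in dal-2 (0.00513). The effects differed by 0.87 ± 0.18 (adjusted p = 0.0321), while the levels reached in induced DIF-OX2 and dal-2 lay close together. The wild-type libraries on Dex were lower than those without it, but that Dex effect in Col-0 (-0.63) was not called. Leaving out any 1 library other than the dal-2 libraries ended the call of the difference between the effects, with adjusted p from 0.0534 to 0.155. WRKY25 (AT2G30250) and WRKY26 (AT5G07100), described with WRKY33 in heat tolerance, showed the reverse order. WRKY25 stood at 9.80 and 12.5 CPM in Col-0, 14.1 and 13.3 in Col-0 on Dex, 9.66 and 13.9 in uninduced DIF-OX2, 32.6 and 35.3 in induced DIF-OX2 and 57.2 and 60.01 in dal-2. It rose by 1.31 ± 0.18 in induced DIF-OX2 (adjusted p = 0.00249) and by 2.39 ± 0.19 in dal-2 (0.000185), and the effects differed by -1.08 ± 0.26 (0.0484). WRKY26 stood at 4.57 and 4.75 CPM in Col-0, 4.17 and 6.27 in Col-0 on Dex, 4.75 and 4.81 in uninduced DIF-OX2, 15.8 and 20.2 in induced DIF-OX2 and 32.2 and 35.1 in dal-2. For both genes the dal-2 libraries were the highest, then the induced libraries, and the other 6 were lowest. WRKY26 rose by 1.77 ± 0.21 in induced DIF-OX2 (adjusted p = 0.00127) and by 2.85 ± 0.22 in dal-2, the largest rise there among members with a mean count of at least 50 (0.000168). Its effects differed by -1.08 ± 0.30, which was not called (adjusted p = 0.0717).

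WRKY3 (AT2G03340), described with WRKY4 in resistance to necrotrophic fungi, was at 24.8 and 21.4 CPM in Col-0, 29.1 and 22.1 in Col-0 on Dex, 24.7 and 23.9 in uninduced DIF-OX2, 29.7 and 22.2 in induced DIF-OX2 and 48.9 and 49.6 in dal-2. Only its dal-2 libraries stood apart from the other 8: it rose by 1.09 ± 0.18 in dal-2 (adjusted p = 0.00314), its value in induced DIF-OX2 was 0.02 ± 0.18 (0.956), and the effects differed by -1.07 ± 0.26 (0.0477). The differences of WRKY3 and WRKY25 were no longer called without any 1 of the libraries of Col-0 and Col-0 on Dex or without induced DIF-OX2 replicate 2, with adjusted p of 0.0661 to 0.129 for WRKY3 and 0.0665 to 0.139 for WRKY25; that of WRKY3 was also lost without either uninduced library (0.0696 each) and that of WRKY25 without induced DIF-OX2 replicate 1 (0.146). In the same group WRKY32 rose in both, by 1.07 ± 0.15 and 0.78 ± 0.15 (adjusted p = 0.00269 and 0.00607), and WRKY2 rose in dal-2 by 0.53 ± 0.17 (0.0423). WRKY58, at 0.216 to 1.64 CPM, rose in dal-2 by 1.74 ± 0.53 (adjusted p = 0.0366). It had 2 counts in each Col-0 library. Its dal-2 libraries, at 0.546 and 0.944 CPM, took in the range of Col-0 on Dex, at 0.664 and 0.885. The dal-2 calls of WRKY2 and WRKY58 were lost without either Col-0 library, with adjusted p of 0.0874 to 0.146, and without dal-2 replicate 2 (0.0928 and 0.211), that of WRKY2 also without dal-2 replicate 1 (0.0522). Leaving out a library outside that comparison ended the call of WRKY2 for either induced library (0.0572 and 0.0569) and that of WRKY58 for any of 6 (0.0519 to 0.0597). WRKY1, WRKY4 and WRKY20 were not called in either comparison, with log2 fold changes between -0.19 and 0.29.

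Group IIb held 3 of the 6 members whose induced effect was higher than their dal-2 effect, WRKY6 (AT1G62300), WRKY9 (AT1G68150) and WRKY36 (AT1G69810). WRKY9 stood at 7.69 and 7.12 CPM in Col-0, 8.06 and 7.49 in Col-0 on Dex, 7.68 and 8.48 in uninduced DIF-OX2, 35.5 and 44.3 in induced DIF-OX2 and 6.96 and 9.38 in dal-2. WRKY36 stood at 14.4 and 13.8 CPM in Col-0, 16.4 and 16.0 in Col-0 on Dex, 15.8 and 15.6 in uninduced DIF-OX2, 54.3 and 61.5 in induced DIF-OX2 and 17.5 and 16.3 in dal-2. For both, the induced libraries stood apart from all 8 others, which lay close together. WRKY9 rose by 2.36 ± 0.19 (adjusted p = 0.00023) and WRKY36, described as a repressor of HY5 in light and UV-B responses, by 1.84 ± 0.11 (9.32e-05). In dal-2 their values were 0.15 ± 0.19 (adjusted p = 0.584) and 0.26 ± 0.12 (0.118). The effects differed by 2.22 ± 0.27 for WRKY9 (adjusted p = 0.00461) and by 1.58 ± 0.16 for WRKY36 (0.00236), and these 2 of the 8 differences were called whichever 1 of the 8 libraries in the contrast was left out. WRKY6, which is active in senescing leaves and represses the phosphate exporter gene PHO1, stood at 18.7 and 14.6 CPM in Col-0, 13.8 and 14.5 in Col-0 on Dex, 18.05 and 14.5 in uninduced DIF-OX2, 62.8 and 73.8 in induced DIF-OX2 and 22.2 and 29.2 in dal-2. Its induced libraries were highest, its dal-2 libraries came next, and the other 6 overlapped. It rose by 2.27 ± 0.19 in induced DIF-OX2 (adjusted p = 0.000336) and by 0.63 ± 0.19 in dal-2 (0.0359), and the effects differed by 1.64 ± 0.27 (0.0143). The dal-2 call of WRKY6 was lost without Col-0 replicate 2 (adjusted p = 0.155), without dal-2 replicate 2 (0.127) or without either induced library (0.0509 and 0.0514). The difference was lost without Col-0 replicate 1, either library of Col-0 on Dex or induced DIF-OX2 replicate 2, with adjusted p of 0.0550 to 0.0804.

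WRKY47 (AT4G01720) stood at 10.2 and 11.2 CPM in Col-0, 11.3 and 11.5 in Col-0 on Dex, 10.6 and 15.4 in uninduced DIF-OX2, 28.3 and 29.6 in induced DIF-OX2 and 38.9 and 45.0 in dal-2. The libraries of induced DIF-OX2 and dal-2 were above the other 6, and WRKY47 rose by 1.34 ± 0.18 (adjusted p = 0.00207) and 1.97 ± 0.18 (0.000298). WRKY61 rose in induced DIF-OX2 by 0.85 ± 0.23 (adjusted p = 0.0331), a call lost without Col-0 on Dex replicate 1 (0.0911) or replicate 2 (0.196), without induced DIF-OX2 replicate 2 (0.244) and without either uninduced library (0.0520 and 0.0523). WRKY31, WRKY42 and WRKY72 were not called; WRKY42 had the highest value among members not called in induced DIF-OX2, 2.08 ± 0.81 (adjusted p = 0.105).

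Group IIc is the largest, with 16 members. WRKY48 (AT5G49520), described as a repressor of basal resistance to Pseudomonas, stood at 7.13 and 12.3 CPM in Col-0, 7.21 and 7.08 in Col-0 on Dex, 5.30 and 9.01 in uninduced DIF-OX2, 44.3 and 44.1 in induced DIF-OX2 and 28.0 and 46.5 in dal-2. It rose by 2.63 ± 0.34 in induced DIF-OX2 (adjusted p = 0.00192) and by 1.94 ± 0.34 in dal-2 (0.00379), and all 4 of these libraries were above the other 6. WRKY45 (AT3G01970), an activator of a phosphate transporter gene that also promotes leaf senescence, stood at 2.67 and 2.48 CPM in Col-0, 2.94 and 2.79 in Col-0 on Dex, 1.98 and 2.45 in uninduced DIF-OX2, 13.9 and 17.9 in induced DIF-OX2 and 7.37 and 18.8 in dal-2. It rose by 2.48 ± 0.42 (adjusted p = 0.0052) and 2.35 ± 0.44 (0.0051). The induced call was lost without Col-0 on Dex replicate 2 (adjusted p = 0.0517), and without dal-2 replicate 2 the dal-2 value was 1.502. WRKY28 (AT4G18170), an activator of the salicylic acid synthesis gene ICS1, stood at 0.668 and 1.73 CPM in Col-0, 1.80 and 1.57 in Col-0 on Dex, 2.69 and 2.45 in uninduced DIF-OX2, 7.75 and 9.65 in induced DIF-OX2 and 4.71 and 9.33 in dal-2. Its groups did not overlap in either comparison, and it rose by 2.38 ± 0.42 (adjusted p = 0.00628) and 2.54 ± 0.46 (0.00453). The induced call of WRKY28 was lost without Col-0 on Dex replicate 2 (adjusted p = 0.0621) or induced DIF-OX2 replicate 2 (0.0565), and its dal-2 value was 3.44 without Col-0 replicate 2 and 1.95 without dal-2 replicate 2. WRKY23 (AT2G47260), an auxin-responsive gene of root and embryo development, stood at 6.57 and 8.95 CPM in Col-0, 10.05 and 8.10 in Col-0 on Dex, 11.003 and 11.02 in uninduced DIF-OX2, 41.0 and 47.8 in induced DIF-OX2 and 17.2 and 8.44 in dal-2. It rose in induced DIF-OX2 by 2.30 ± 0.31 (adjusted p = 0.00228), while its dal-2 libraries overlapped those of Col-0, at 0.71 ± 0.32 (0.12).

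Of the other group IIc members, WRKY57 and WRKY75, both described in leaf senescence, rose in both comparisons. WRKY57 rose by 1.57 ± 0.24 and 1.14 ± 0.24 (adjusted p = 0.00331 and 0.00807), and WRKY75 by 2.06 ± 0.26 and 1.34 ± 0.28 (0.00175 and 0.0079). WRKY71 rose in dal-2 by 2.18 ± 0.47 (adjusted p = 0.00966), lost without Col-0 replicate 2 (0.0692). It had 5 and 3 counts in the Col-0 libraries. Its levels were 0.557 and 0.324 CPM in Col-0, 1.04 and 0.953 in Col-0 on Dex, 1.03 and 0.700 in uninduced DIF-OX2 and 2.52 and 1.55 in dal-2. The 3 members with the WRKYGKK heptad were low in every library, at most 7.10 CPM. WRKY50 rose by 1.33 ± 0.39 in induced DIF-OX2 (adjusted p = 0.0453) and 1.26 ± 0.36 in dal-2 (0.0298); WRKY50 and WRKY51 are described as repressors in jasmonate signalling. Every library of the first comparison, and 4 others, ended the induced call of WRKY50 when left out (adjusted p from 0.0666 to 0.236), and leaving out either Col-0 library or dal-2 replicate 1 ended its dal-2 call (0.0747 to 0.138). The induced call of WRKY50 was also lost by DESeq2 (adjusted p = 0.0545), limma-voom (0.0865), upper quartile scaling (0.0524) and the replicate block (0.0577). Its dal-2 call was lost by limma-voom (0.0636). WRKY51 rose by 2.57 ± 0.47 in induced DIF-OX2 (adjusted p = 0.00704), lost if replicate 2 was dropped from Col-0 on Dex (0.0667) or from induced DIF-OX2 (0.0713) and at 3.22 without Col-0 on Dex replicate 1. WRKY59 had 50 counts in the induced libraries and 3 in Col-0 on Dex, a ratio of 16.3 after scaling (95% interval 5.27 to 81.8, exact, for counting error only). WRKY59 had at most 8 counts in any other library, so it passed the count filter only through the induced libraries. Its call (adjusted p = 0.0256) was lost without Col-0 on Dex replicate 2 (0.118) or without induced DIF-OX2 replicate 1 (0.0939) or replicate 2 (0.129). In dal-2 WRKY59 had 12 counts against 0 in Col-0, at least 2.23-fold higher with the 0 set to 3 counts over the group, and was not called (adjusted p = 0.095). WRKY8, WRKY12, WRKY13, WRKY24, WRKY43 and WRKY56 were not called, with log2 fold changes from -0.69 to 0.86.

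**Figure D4:**
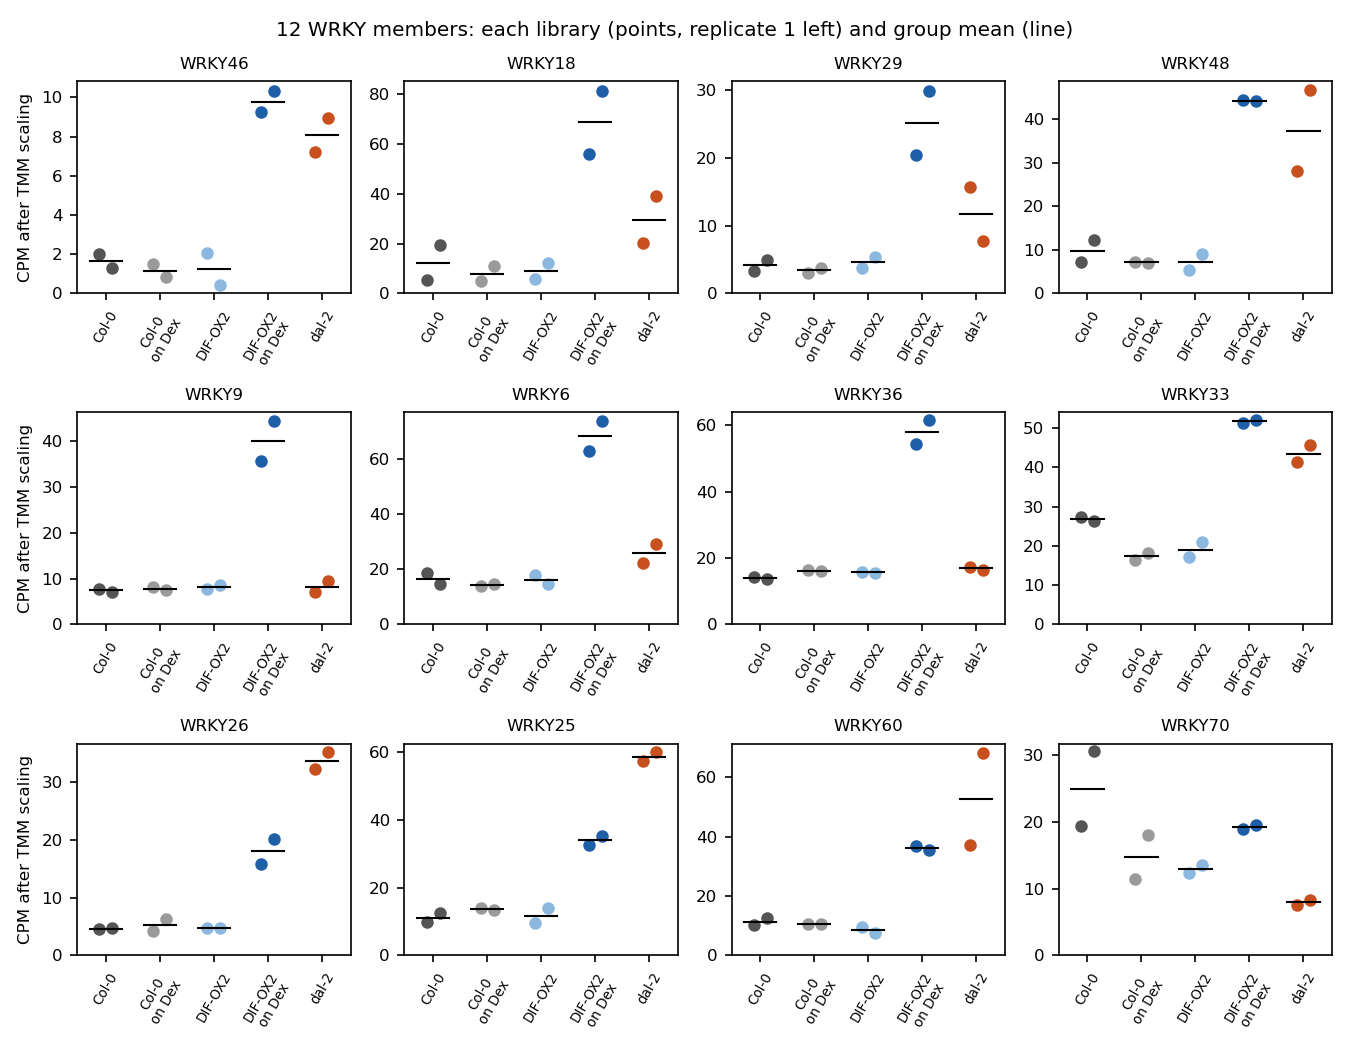
Each panel plots 1 of 12 WRKY members, with CPM after TMM scaling from 0 on the y axis, a point for each library and a line at the group mean (n = 2). WRKY9, WRKY36 and WRKY6 stand highest in induced DIF-OX2, WRKY25 and WRKY26 in dal-2, and WRKY70 (AT3G56400) is lowest in dal-2, at 7.51 and 8.33.

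Group IId, whose members bind calmodulin, held WRKY11 (AT4G31550), WRKY15 and WRKY39, among the most abundant members, and few calls. WRKY11, a negative regulator of basal resistance in Arabidopsis, stood at 30.1 and 33.5 CPM in Col-0, 25.1 and 32.6 in Col-0 on Dex, 26.7 and 29.0 in uninduced DIF-OX2, 75.0 and 87.9 in induced DIF-OX2 and 39.6 and 35.4 in dal-2. Its induced libraries were well above the rest. WRKY11 rose by 1.495 ± 0.16 in induced DIF-OX2 (adjusted p = 0.000852), its value in dal-2 was 0.24 ± 0.16 (0.274), and the effects differed by 1.26 ± 0.22 (0.0173). That difference was lost without either Col-0 library, without Col-0 on Dex replicate 1 or without induced DIF-OX2 replicate 2, with adjusted p of 0.0687 to 0.0885. WRKY17, its closest relative in described function, was not called, at -0.05 ± 0.15 and -0.35 ± 0.15. WRKY7 rose in dal-2 by 0.69 ± 0.14 (adjusted p = 0.00703) and WRKY74 by 1.63 ± 0.45 (0.026), the latter lost without either Col-0 library (0.0993 and 0.109) or dal-2 replicate 2 (0.107). WRKY74 stood at 0.557 and 0.539 CPM in Col-0, and its dal-2 libraries, at 1.30 and 2.11, took in the range of Col-0 on Dex, at 1.52 and 1.63. WRKY15, WRKY21 and WRKY39 were not called in either.

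In group IIe, WRKY29 (AT4G23550), a target of the kinase cascade that flagellin starts, stood at 3.34 and 4.96 CPM in Col-0, 3.04 and 3.75 in Col-0 on Dex, 3.80 and 5.34 in uninduced DIF-OX2, 20.5 and 29.9 in induced DIF-OX2 and 15.7 and 7.72 in dal-2. The libraries of induced DIF-OX2 were highest and those of dal-2 lay between them and the other 6. WRKY29 rose by 2.88 ± 0.39 (adjusted p = 0.00224) and by 1.48 ± 0.39 (0.0217). Its dal-2 call was lost without Col-0 replicate 1 (adjusted p = 0.113) or replicate 2 (0.0523) or dal-2 replicate 1 (0.88, 0.0702). WRKY22, placed beside WRKY29 in the same cascade, was at 3.98 to 11 CPM in the 6 libraries of Col-0, Col-0 on Dex and uninduced DIF-OX2 and at 2.59 to 5.05 in the other 4. It had the lowest value of all members in induced DIF-OX2, -1.18 ± 0.57, and -1.05 ± 0.55 in dal-2, and neither was called (adjusted p = 0.174 and 0.166). With the replicate number as a block both were called lower (adjusted p = 0.0253 and 0.0193). The induced value was also called lower in the fit on the libraries of that comparison alone (0.0478). WRKY14 rose in induced DIF-OX2 by 1.12 ± 0.27 (adjusted p = 0.0198), lost without Col-0 on Dex replicate 1 (0.129) or replicate 2 (0.0816) or induced DIF-OX2 replicate 2 (0.173). WRKY27, WRKY35, WRKY65 and WRKY69 were not called.

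Group III members are tied to salicylic acid and senescence. WRKY46 (AT2G46400) stood at 2.01 and 1.29 CPM in Col-0, 1.52 and 0.817 in Col-0 on Dex, 2.06 and 0.437 in uninduced DIF-OX2, 9.26 and 10.3 in induced DIF-OX2 and 7.23 and 8.94 in dal-2. The libraries of induced DIF-OX2 and dal-2 were all above the other 6. It rose by 3.10 ± 0.52 (adjusted p = 0.00511) and 2.29 ± 0.51 (0.0112), the first call lost without Col-0 on Dex replicate 2 (0.0589) and the other without Col-0 replicate 2 (0.0732). WRKY53 (AT4G23810), a promoter of leaf senescence, stood at 2.34 and 1.83 CPM in Col-0, 1.99 and 2.11 in Col-0 on Dex, 1.66 and 2.10 in uninduced DIF-OX2, 5.92 and 6.38 in induced DIF-OX2 and 8.87 and 10.4 in dal-2. It had the same split of libraries, with dal-2 highest, and rose by 1.58 ± 0.22 (adjusted p = 0.00262) and 2.204 ± 0.23 (0.000434). WRKY54 rose in induced DIF-OX2 by 2.30 ± 0.45 (adjusted p = 0.00973), lost without either library of Col-0 on Dex (0.0808 and 0.0581) or induced DIF-OX2 replicate 2 (0.0831).

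WRKY70 acts with WRKY54 as a brake on senescence and sits between salicylic acid and jasmonate signalling. It stood at 19.3 and 30.5 CPM in Col-0, 11.4 and 18.05 in Col-0 on Dex, 12.3 and 13.6 in uninduced DIF-OX2, 18.8 and 19.5 in induced DIF-OX2 and 7.51 and 8.33 in dal-2. The dal-2 libraries were the lowest of the 10 and those of Col-0 included the highest. WRKY70 fell in dal-2 by 1.65 ± 0.27 on the log2 scale (adjusted p = 0.00282), a call kept whichever 1 of the 4 libraries was left out. In induced DIF-OX2 its value was 0.37 ± 0.26 (adjusted p = 0.342), and the effects differed by 2.02 ± 0.37 (0.0199), a difference lost without Col-0 replicate 2 (0.0699), Col-0 on Dex replicate 1 (0.0780) or either induced library (0.0653 and 0.0735). WRKY30 and WRKY38 were not called in the main comparisons. WRKY55 and WRKY62 were too low to be tested: WRKY55 had 23 counts in induced DIF-OX2 and 1 in Col-0 on Dex, a ratio of 22.5 (95% interval 3.66 to 928), and WRKY62 had 21 and 2, a ratio of 10.3 (2.51 to 90.5). WRKY49, with no group assigned, was not called either. Per the annotation, 10 members overlap another gene, among them WRKY9, WRKY29, WRKY33, WRKY40, WRKY53 and WRKY61 with a gene on the opposite strand, and the sources used here do not say whether the counting used strand, so reads of such partners cannot be told apart.

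Per kilobase of exon, the most abundant members in Col-0 were WRKY39 at 29.5 ± 6.24 CPM (SD, n = 2), WRKY15 at 23.2 ± 7.43 and WRKY1 at 20.7 ± 0.659. The spread of WRKY15 took in part of that of both others, while WRKY39 and WRKY1 lay apart by more than their SDs. In induced DIF-OX2 the order began with WRKY11 at 44.8 ± 5.02, WRKY15 at 34.0 ± 4.48 and WRKY18 at 33.9 ± 8.82, and in dal-2 with WRKY60 at 33.4 ± 13.9 and WRKY25 at 33.01 ± 1.1. WRKY18 moved from rank 27 of 60 in Col-0 on Dex to rank 3 in induced DIF-OX2 and WRKY9 from 22 to 5. From Col-0 to dal-2, WRKY60 moved from rank 18 to 1, WRKY25 from 21 to 2 and WRKY70 from 8 to 34. Split by level per kilobase in uninduced DIF-OX2, whose libraries enter neither main comparison, the 20 most abundant members included 8 that rose in induced DIF-OX2 and 7 in dal-2. The middle 20 included 12 and 9, and the lowest 20, of which 18 were tested, 6 and 6. Over all genes tested, 11.6% and 15.9% were called higher. The split is a description, and low counts limit what could be called in the lowest set. The medians of the log2 fold changes in induced DIF-OX2 were 0.40, 1.54 and 1.22 from the most to the least abundant set, and in dal-2 0.32, 0.66 and 1.29.

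**Figure D5:**
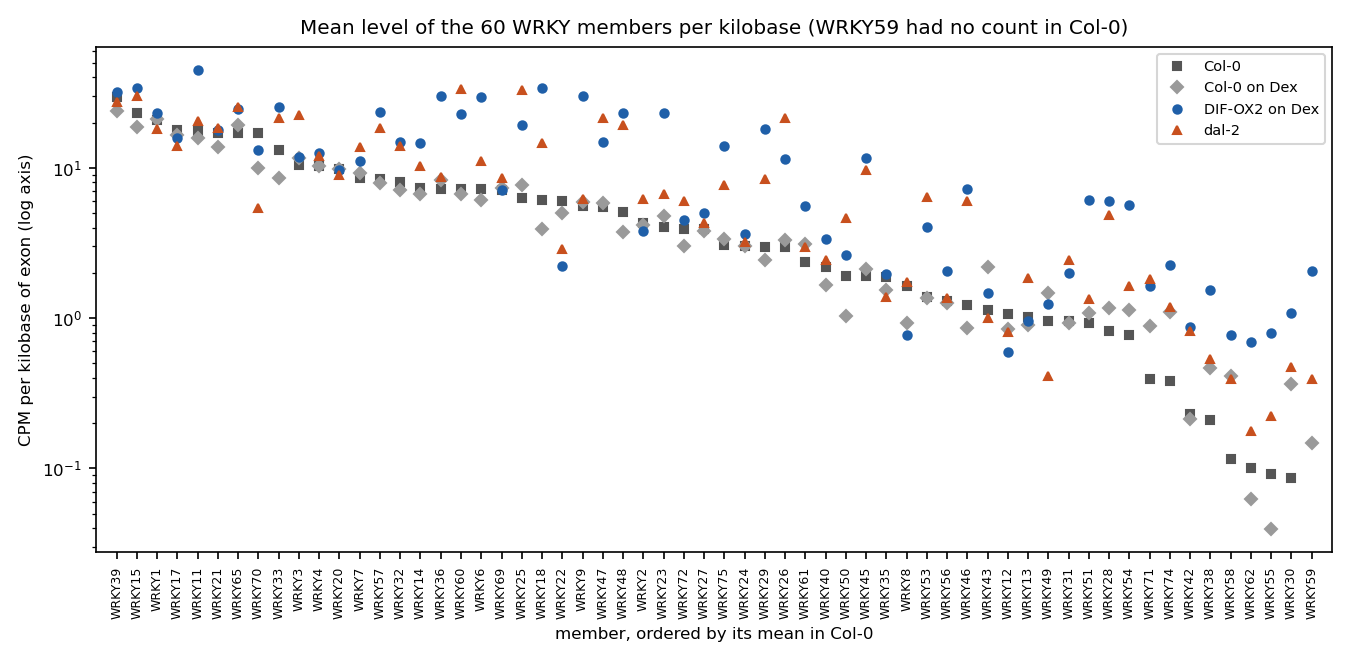
Mean CPM per kilobase of exon (log axis) of each of the 60 WRKY members, ordered by its mean in Col-0, in Col-0, Col-0 on Dex, induced DIF-OX2 and dal-2. Means of 0 are not drawn; the induced points of WRKY18 (33.9) and WRKY9 (30.2) lie far above their Col-0 points, and the dal-2 point of WRKY70 lies below its own.

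The Dex controls compare the lines without Dex and the effect of Dex within each line. Without Dex, DIF-OX2 and Col-0 differed in 0 of 58 members by edgeR, DESeq2 and limma-voom, with 2 at an unadjusted p under 0.05, where 0.00967% of all genes were called. Dex in Col-0 changed 0 members by each of these tools, with 4 at an unadjusted p under 0.05, and 0% of all genes. Dex in DIF-OX2 raised 29 members and lowered 0, by DESeq2 28 and 0 and by limma-voom 29 and 0, with 1 lower at an unadjusted p under 0.05; of all genes, 12.7% were called higher and 11.6% lower. Without uninduced replicate 1 or induced DIF-OX2 replicate 2 the 29 became 19. WRKY22 was lowered with the replicate block (-1.32, adjusted p = 0.0134) and in the fit on these 4 libraries alone (-1.32, 0.0249), and WRKY12 without induced DIF-OX2 replicate 1 (-2.22, 0.0481). This comparison shares the induced libraries with the one against Col-0 on Dex: 25 of the 26 members that rose there also rose here, the exception being WRKY50 (0.97, adjusted p = 0.101). WRKY30, WRKY31, WRKY58 and WRKY74 were called here and not there, and WRKY58 and WRKY74 were called in dal-2 too. Leaving out 1 of the 4 libraries ended each of these calls: any 1 of them for WRKY30, WRKY31 and WRKY58 (adjusted p from 0.0579 to 0.22), and either uninduced library or induced DIF-OX2 replicate 2 for WRKY74 (0.0711 to 0.115). Leaving out a library of Col-0 or Col-0 on Dex also ended the calls of WRKY31 and WRKY58 (0.0505 to 0.0717). WRKY31 was not called by limma-voom or with the replicate block, nor WRKY58 by DESeq2. For WRKY58 and WRKY74 the Dex values were 1.56 and 1.85 in DIF-OX2 and 1.80 and 1.51 in Col-0, the latter not called, and the differences, -0.24 and 0.34, were not called either. WRKY30 had 35 counts in induced and 1 in uninduced DIF-OX2, a ratio of 32.7 (95% interval 5.497 to 1328), and WRKY59 had 50 against 0, at least 15.6-fold higher with the 0 set to 3 counts over the group. WRKY30, WRKY58 and WRKY59 passed the count filter only through the induced libraries, so their tests here depended on being high there. The Dex effect was larger in DIF-OX2 than in Col-0 for 17 members and smaller for 0, by DESeq2 21 and 0 and by limma-voom 13 and 0, with none smaller at an unadjusted p under 0.05; 3.83% and 2.5% of all genes were called. All 17 were among the 26, but both comparisons use the libraries of induced DIF-OX2 and Col-0 on Dex. The overlap is therefore not independent support. With 1 library of the comparison left out the count of 17 fell to between 5 and 8, except without induced DIF-OX2 replicate 1, where it was 12. For WRKY33, Dex moved the level by 1.44 in DIF-OX2 and by -0.63 in Col-0, the latter not called, a difference of 2.07 ± 0.19 (adjusted p = 0.00199).

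Of 10 genes of the MAP kinase cascade upstream of WRKY factors, 4 rose in induced DIF-OX2 and 3 in dal-2, and 0 fell in either by edgeR, nor at an unadjusted p under 0.05. Of all genes, 11.6% and 15.9% were called higher. The median log2 fold changes of the 10 were 0.62 and 0.30. The induced count was 1 without replicate 2 of either group compared, 2 without Col-0 on Dex replicate 1 and 5 without either dal-2 library; the dal-2 count was 2 without any 1 library other than those of replicate 1 of Col-0, where it was 3, and replicate 2 of dal-2, where it was 5. MPK11, a kinase activated by microbial signals, stood at 0.664 and 0.545 CPM in Col-0 on Dex and 8.08 and 7.29 in induced DIF-OX2, and at 0.334 and 0.108 in Col-0 and 2.05 and 2.33 in dal-2. It rose by 3.66 ± 0.32 (adjusted p = 0.000364) and by 3.26 ± 0.44 (0.00129; 4.28 without Col-0 replicate 1), with no overlap of groups in either. MKK5 rose in induced DIF-OX2 by 0.82 ± 0.14 (adjusted p = 0.00624), lost when replicate 2 was left out of Col-0 on Dex (0.0605) or induced DIF-OX2 (0.0537). MKK4 rose there by 0.71 ± 0.14 (adjusted p = 0.00982), lost without either library of Col-0 on Dex or induced DIF-OX2 replicate 2 (0.0631 to 0.0826). MKK9 rose in both, by 0.79 ± 0.19 (adjusted p = 0.0212), lost without any 1 of the 4 libraries (0.0517 to 0.143), and by 1.06 ± 0.19 (0.0043). MPK4 rose in dal-2 by 0.38 ± 0.12 (adjusted p = 0.0434), lost without any 1 library other than Col-0 replicate 1 and dal-2 replicate 2 (0.0502 to 0.17). MEKK1 was not called, at 0.54 ± 0.25 and -0.26 ± 0.25 (adjusted p = 0.165 and 0.455).

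Among genes for proteins with a VQ motif, which bind WRKY domains, 9 of 11 were tested; 4 rose in induced DIF-OX2 and 2 in dal-2, where 11.6% and 15.9% of all genes were called higher; 2 of 9 is close to the latter share. The induced count was 2 without either library of Col-0 on Dex or induced DIF-OX2 replicate 2; the dal-2 count was 1 without Col-0 replicate 2 and 5 without dal-2 replicate 2. VQ8, listed as PDE337 in RefSeq, stood at 1.33 and 2.25 CPM in Col-0 on Dex and 9.80 and 14.5 in induced DIF-OX2, and rose by 2.74 ± 0.35 (adjusted p = 0.00172). JAV1, a repressor of jasmonate defence, rose in both, by 2.25 ± 0.32 (adjusted p = 0.00274) and 2.08 ± 0.32 (0.00241). MVQ1 rose in induced DIF-OX2 by 0.43 ± 0.13 (adjusted p = 0.0497), lost without any 1 of the 8 libraries of 12-day seedlings other than induced DIF-OX2 replicate 1 (0.0838 to 0.324). VQ10 rose by 2.65 ± 0.69 in induced DIF-OX2 (adjusted p = 0.0334), lost without any 1 of its 4 libraries (0.0716 to 0.22; 3.77 and 1.87 leaving out Col-0 on Dex replicate 1 and replicate 2). In dal-2 VQ10 had 39 counts against 1 in Col-0, a ratio of 21.8 (95% interval 3.69 to 882), a call lost without Col-0 replicate 2 (adjusted p = 0.0681). MKS1 was not called, at 0.39 ± 0.31 and 0.79 ± 0.31 (adjusted p = 0.414 and 0.082).

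Of 14 tested genes described as targets of WRKY factors, 6 rose and 1 fell in induced DIF-OX2, and 5 rose and 3 fell in dal-2. Of all genes, 11.6% rose and 10.4% fell in the first comparison and 15.9% and 18% in the other, so that 3 falls of 14 in dal-2 is close to the share of all genes. The 6 became 2 without replicate 2 of either group compared, 3 without Col-0 on Dex replicate 1, and 4 without either uninduced library or without induced DIF-OX2 replicate 1. The 5 became 3 without any 1 of the libraries of Col-0, Col-0 on Dex and uninduced DIF-OX2 or without dal-2 replicate 1, and the 3 became 2 without either Col-0 library. FRK1, a flagellin-responsive receptor kinase gene described downstream of WRKY29, stood at 0.285 and 0.272 CPM in Col-0 on Dex and 8.83 and 11.1 in induced DIF-OX2, and rose by 5.12 ± 0.74 (adjusted p = 0.00287). In dal-2 it stood at 7.85 and 2.498 CPM, with 160 counts against 3 in Col-0, a ratio of 29.8 (95% interval 10.0 to 146; call kept without any 1 of its 4 libraries, adjusted p up to 0.0324). Its fitted log2 fold change of 4.88 became 9.10 and 3.96 without Col-0 replicate 1 and replicate 2 and 3.84 and 5.48 without dal-2 replicate 1 and replicate 2. The defence gene PR1 had 429 counts in induced DIF-OX2 and 2 in Col-0 on Dex, a ratio of 210 (57.8 to 1740.5), and its call (adjusted p = 0.0457) was lost without any 1 of the 8 libraries of 12-day seedlings (0.0665 to 0.218). In dal-2 PR1 stood at 42.9 and 0.389 CPM against 0.223 and 0.216 in Col-0: without dal-2 replicate 1 its log2 fold change of 6.55 became 0.79 and its adjusted p of 0.0401 became 0.565, and the call was also lost without any other library except dal-2 replicate 2 (0.0536 to 0.158). AOX1A, the alternative oxidase gene of mitochondria that WRKY40 is described to repress, stood at 32.0 and 32.3 CPM in Col-0 on Dex and 59.8 and 57.8 in induced DIF-OX2, and at 36.7 and 33.1 in Col-0 and 67.3 and 56.1 in dal-2. It rose by 0.87 ± 0.13 (adjusted p = 0.00369) and 0.82 ± 0.13 (0.00299), with no overlap of groups. PHO1, described as repressed by WRKY6, rose in induced DIF-OX2 by 0.87 ± 0.20 (adjusted p = 0.0194), lost without either library of Col-0 on Dex or induced DIF-OX2 replicate 2 (0.0981 to 0.153), and was not called in dal-2 (-0.44 ± 0.20, 0.131). ICS1, described as activated by WRKY28, was not called in induced DIF-OX2 (0.33 ± 0.12, adjusted p = 0.087) and fell in dal-2 by 0.60 ± 0.12 (0.00738), lost without Col-0 replicate 2 (0.0692). JAZ8, a jasmonate repressor gene, had 64 counts in induced DIF-OX2 against 0, at least 20.9-fold higher with the 0 set to 3 counts over the group (adjusted p = 0.00819), lost if replicate 2 was dropped from Col-0 on Dex (0.063) or from induced DIF-OX2 (0.0651). JAZ8 had at most 4 counts in any other group and passed the count filter only through the induced libraries, as did PR1. The ethylene synthesis gene ACS6 fell in both, by 1.11 ± 0.14 on the log2 scale in induced DIF-OX2 (adjusted p = 0.0019) and by 2.33 ± 0.15 in dal-2 (9.03e-05). CYP71A13, a camalexin synthesis gene under WRKY33, stood at 11.5 and 1.62 CPM in Col-0 and 0.546 and 0.111 in dal-2 and fell by 4.35 ± 1.00 (adjusted p = 0.0124), a call lost without Col-0 replicate 1 (-2.28, 0.0897) and at -5.11, -5.76 and -3.56 without Col-0 replicate 2, dal-2 replicate 1 and dal-2 replicate 2. In induced DIF-OX2, CYP71A13 was at 1.69 ± 0.82 (adjusted p = 0.175). PAD3, the last enzyme of camalexin synthesis, rose in both, by 1.91 ± 0.51 (adjusted p = 0.0308) and 1.76 ± 0.57 (0.0441). The first call of PAD3 was lost without any 1 of the 4 libraries (adjusted p from 0.061 to 0.193) or without either uninduced library (0.0517 and 0.0518), and the other without any 1 library except dal-2 replicate 2 (0.0539 to 0.215), with a value of 0.64 without dal-2 replicate 1 and 2.39 without dal-2 replicate 2.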

How the data were processed

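10 RNA-seq libraries of 5 groups with 2 replicates each were analysed from the deposited table of raw counts per gene, which the authors made with Trimmomatic, TopHat2 and HTSeq on TAIR10, per the submitters' processing notes; versions and whether strand or multiply mapped reads were counted are not given in the sources used here. Genes were filtered with filterByExpr, scaled by TMM and fitted with edgeR's quasi-likelihood test (edgeR 4.0.16, R 4.3.3) over all 10 libraries, 1 coefficient per group, with Benjamini-Hochberg adjustment over all tested genes and a threshold of 0.05. The SE of a log2 fold change was derived from that test, as its absolute value divided by the square root of the F statistic. Alternatives were DESeq2 1.42.0, limma-voom (limma 3.58.1), other scalings and filters, a replicate block, fits on the libraries of a comparison alone and leaving out each library. The procedure was run on simulated counts with the same spread in every group. Only the comparison of induced DIF-OX2 with Col-0 on Dex and that of Dex in Col-0 were scored. The simulation therefore did not cover the wider spread of the dal-2 replicates, the dal-2 calls or the differences of effects. Library totals limit precision, and intervals and bounds cover counting error only; all groups have 2 libraries. Names, lengths and sequences came from RefSeq TAIR10.1, and WRKY groups and gene lists from general knowledge. The members and lists were chosen with earlier results of these data known. Library values are given for the 8 largest rises and up to 4 falls of each main comparison among called members whose counts average 50 or more and whose groups do not overlap, for members called in the difference of effects, and for WRKY6, WRKY18, WRKY33, WRKY40, WRKY53, WRKY60 and WRKY70.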

Additional observations from a re-analysis of the deposited data

Results flagged for a closer look

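The effect of Dex differed between DIF-OX2 and Col-0, by the interaction term of edgeR's quasi-likelihood fit (adjusted p of 0.05), for 17 WRKY members. Of all genes tested, 3.83% were called with a larger effect in DIF-OX2 and 2.5% with a smaller one. DESeq2 called 21 members and limma-voom 13. Each of the 17 was raised by Dex in DIF-OX2 and none was called in Col-0. The difference was 3.47 on the log2 scale for WRKY46, 3.07 for WRKY48, 2.75 for WRKY29 and 2.70 for WRKY45. It was 2.30 for WRKY6, 2.24 for WRKY9, 2.21 for WRKY60 and 2.07 for WRKY33. WRKY75 had a difference of 1.89, WRKY26 of 1.74, WRKY53 of 1.73, WRKY11 of 1.69 and WRKY36 of 1.68. The smallest were 1.53 for WRKY57, 1.24 for WRKY25, 1.15 for WRKY32 and 1.07 for WRKY47. The calls of WRKY6, WRKY9, WRKY33 and WRKY36 were kept whichever 1 of the 8 libraries was left out, and each of the other 13 was lost at least once.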

How the results depend on the processing

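With 2 libraries a group, single libraries decided many calls. Leaving out 1 library at a time, the members higher in induced DIF-OX2 ranged from 16 to 35 and those lower were 0; the members higher in dal-2 ranged from 15 to 23 and those lower from 1 to 3; the induced effect was higher than the dal-2 effect for 2 to 10 and lower for 0 to 4; Dex changed 19 to 35 in DIF-OX2 and lowered 0 to 1 of them; and its effect differed between the lines for 5 to 24. Without any 1 of their own libraries, 16 of 26 calls in induced DIF-OX2, 15 of 23 in dal-2 and 2 of 8 differences were kept. The replicate block gave 1 member lower in induced DIF-OX2, 2 in dal-2 and 1 lowered by Dex in DIF-OX2, with WRKY22 called in each (-1.13, adjusted p = 0.0253; -1.05, 0.0193; -1.32, 0.0134), and it added WRKY18 in dal-2 (1.37, 0.00783); the replicate differences of the compared groups correlated at 0.0973 and 0.124 and over all pairs of groups at -0.105 to 0.458, and the samples share only a number. Fitted on the libraries of the comparison alone, 1 member was lower in induced DIF-OX2 (WRKY22, -1.20, 0.0478), 1 was lowered by Dex in DIF-OX2 (WRKY22, -1.32, 0.0249), 8 were higher in dal-2 and 1 effect was lower, as was 1 by limma-voom. Apart from that limma-voom count, under the other scalings, filters and tools the counts of members over the 58 tested stayed within 1.5 times those reported, and no called value of a member described library by library changed sign. Upper quartile scaling moved the median of all genes in dal-2 by 0.13 on the log2 scale. The causes were not tested. Depth limits 10 members with under 60 counts in every group, WRKY12, WRKY30, WRKY38, WRKY43, WRKY49, WRKY55, WRKY56, WRKY58, WRKY59 and WRKY62.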
